A study of Mus musculus with 6 samples.

Results

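The Rhox (reproductive homeobox) genes are a cluster of homeobox genes on the mouse X chromosome. The scanner files held 8 probes named for a Rhox gene, or carrying an accession or older symbol of one, among 41174 probes in all. The members described here were chosen by that name and by the scanner software's mark for a probe well above background, which had to stand on 2 or more arrays. They are 7 genes with 1 probe each, of 27681 names on the array: Rhox2a, Rhox3a, Rhox4e, Rhox5, Rhox6, Rhox9 and Rhox13. All 7 carried that mark on all 6 arrays, whereas the remaining probe, for Rhox11, carried it on 0 arrays, with signals of 1.41 to 2.92, and was not well above background. No Rhox probe lay near the limit of 2 arrays, and 0 of the 7 members were saturated on any array. The array's own annotation calls the Rhox2a and Rhox3a probes Rhox2 and Rhox3, and the Rhox13 probe 1700123J19Rik. In the authors' deposited table the title of the Rhox3a probe's entry names Rhox3h while its gene identifier is that of Rhox3a, so the Rhox3a values may stand for either copy.

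Rhox genes encode homeodomain transcription factors expressed mainly in testis, epididymis, ovary and placenta. Rhox5, first known as Pem, is the founding member, and it is active in extraembryonic tissue, in embryonic stem cells and in Sertoli cells of the testis. In cells of the embryo proper the cluster is kept silent by DNA methylation, and its genes are turned on in placental and germline lineages. Rhox6 and Rhox9, once called Psx1 and Psx2 for placenta-specific homeobox, are known from trophoblast and germ cells, Rhox4 genes from placenta and embryonic stem cells, and Rhox13 from male germ cells. The gene table lists 42 Rhox genes, 33 of them protein-coding, and among them are 8 Rhox2, 9 Rhox3 and 8 Rhox4 copies. The probes' sequences were not analysed here, so a value given for Rhox2a, Rhox3a or Rhox4e may include signal from near-identical copies, and likewise one for Rhox6 or Rhox9, which was not tested.

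Total RNA from 6 samples was hybridised to Agilent 1-colour arrays, 1 array per sample. The study asked what changes in germ cells made in culture when Dazl, an RNA-binding protein gene of germ cells, is knocked down. All samples came from male Oct4-GFP transgenic embryonic stem cells of strain C57BL/6 129SV mixed that carried a vector with a tdTomato marker, either a Dazl hairpin or a control. Feeder cells were removed by plating on plastic, the cells were differentiated on gelatin without them, and double-positive cells (GFP, which reports Oct4 activity, and tdTomato) were sorted. The groups are the day 12 knockdown, with 2 arrays (hairpin 2 and hairpin 1), the day 12 control, with 1 array, the day 9 knockdown, with 2 arrays (hairpin 2 and hairpin 1), and the day 9 control, with 1 array. These cells are stem-cell derivatives that the labels call primordial germ cells, not cells from an embryo. No label states that samples were separate cultures, so every p-value measures only the spread between these samples.

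Each array had 70.3% to 73.3% of its probes well above background. The 2 Dazl probes had 3.0% to 8.28% of the control's level on the 4 knockdown arrays (limma adjusted p = 0.00464 and 0.0547). Of 10 germ cell markers, 9 were tested, all 9 well above background on all 6 arrays. Of these 7 were lower in the knockdown, with a median log2 difference of -0.13. Their summed level, each gene relative to its array's 75th percentile, was 51.9 to 56.0 in knockdown and 57.2 to 58.7 in control samples, with Dazl itself among them. Without Dazl the ranges overlapped, at 51.8 to 55.8 in knockdown and 51.2 to 56.2 in control samples. Markers of other cell types also stood at different levels. All 11 tested markers of visceral and parietal endoderm were higher in the knockdown, with a median log2 difference of 0.83, and their summed level was 21.7 to 32.5 in knockdown and 17.8 to 23.3 in control samples. All 7 feeder fibroblast markers were higher as well, with a median of 0.98 and a summed level of 3.36 to 7.99 in knockdown and 2.05 to 5.39 in control samples. Of 6 markers of gonadal somatic cells 3 were higher and 3 lower, with a summed level of 0.635 to 0.805 in knockdown and 0.691 to 0.738 in control samples. Of 6 pluripotency markers 5 were higher, with a median of 0.26 and a summed level of 83.6 to 101.0 in knockdown and 72.1 to 87.8 in control samples. Of 8 tested trophoblast markers 5 were higher, with a median of 0.11 and a summed level of 13.3 to 33.9 in knockdown and 19.4 to 21.7 in control samples. The strongest gene weighs most in such a sum. Krt7 (log2 3.59 to 5.0) made up most of the trophoblast sum and Sparc (log2 4.01 to 4.83) most of the endoderm sum. Prdm14 (germ cell), Ttr (endoderm) and Gcm1 (trophoblast) were not well above background on enough arrays. No marker other than Dazl had an adjusted p under 0.05 in limma. There an unadjusted p under 0.05 stood for 5 endoderm, 3 fibroblast, 2 germ cell, 2 gonadal, 1 pluripotency and 1 trophoblast marker. Of all 30190 tested probes, 2982 had such a p in the knockdown, 53.2% were lower and 46.8% higher. The 2 germ cell markers were Dazl and Pou5f1, and Pou5f1 was also the pluripotency marker, as it stands in both lists. Pou5f1, the Oct4 gene whose reporter was sorted on, was higher in the knockdown by 0.70 (SE 0.16). The part of these cell types in the Rhox values was not tested. In bulk samples, fewer cells of a type and less RNA per cell cannot be told apart.

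The promoter windows of members that were lower with both hairpins or that differed most between the days are printed here because the cluster is known for control by CpG methylation. Each is 250 bases before to 50 after the RefSeq start, read 5′ to 3′ on the plus strand of the X chromosome in GRCm38.p6, with CpG pairs in capitals. They lie at chrX:38120590-38120889 for Rhox13, chrX:37557162-37557461 for Rhox4e, chrX:37754358-37754657 for Rhox5 and chrX:37244742-37245041 for Rhox2a.
Rhox13: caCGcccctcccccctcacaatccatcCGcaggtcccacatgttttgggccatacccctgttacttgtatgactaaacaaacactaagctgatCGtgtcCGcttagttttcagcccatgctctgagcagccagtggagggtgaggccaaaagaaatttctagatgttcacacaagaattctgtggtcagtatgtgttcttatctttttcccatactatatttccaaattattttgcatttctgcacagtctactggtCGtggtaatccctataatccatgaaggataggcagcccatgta
Rhox4e: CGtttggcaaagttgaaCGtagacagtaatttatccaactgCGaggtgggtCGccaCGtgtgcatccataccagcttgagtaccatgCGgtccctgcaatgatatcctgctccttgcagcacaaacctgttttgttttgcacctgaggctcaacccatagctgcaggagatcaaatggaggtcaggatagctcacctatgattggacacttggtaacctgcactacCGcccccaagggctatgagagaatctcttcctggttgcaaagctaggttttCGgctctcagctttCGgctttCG
Rhox5: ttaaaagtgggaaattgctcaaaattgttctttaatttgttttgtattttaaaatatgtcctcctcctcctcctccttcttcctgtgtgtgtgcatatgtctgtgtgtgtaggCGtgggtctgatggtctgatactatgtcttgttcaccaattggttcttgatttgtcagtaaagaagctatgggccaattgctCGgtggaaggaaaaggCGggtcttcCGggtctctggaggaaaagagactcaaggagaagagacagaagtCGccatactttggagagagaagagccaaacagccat
Rhox2a: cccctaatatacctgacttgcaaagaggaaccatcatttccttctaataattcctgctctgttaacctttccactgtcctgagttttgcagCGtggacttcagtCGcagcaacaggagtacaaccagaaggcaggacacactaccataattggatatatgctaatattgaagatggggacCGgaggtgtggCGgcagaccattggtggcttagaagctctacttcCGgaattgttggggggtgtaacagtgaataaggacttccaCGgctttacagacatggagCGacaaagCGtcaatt

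These windows held 5 CpG pairs for Rhox13, 10 for Rhox4e, 5 for Rhox5 and 8 for Rhox2a, against a median of 7 over 32851 windows of the same length. The window of Rhox3a, the fifth member with an entry, held 2. Rhox6 and Rhox9 had no entry. The E-box CACGTG, searched on both strands, stood in the Rhox4e window and in 5 of the 7 Rhox4 windows, which were the only matches among 28 Rhox windows; 7.15% of all windows hold it. The SP1-type letters GGGCGG also stood in Rhox4e, with a share of 35.7% of all windows. The ETS-type letters CCGGAAG matched Rhox5 and Rhox2a and all 7 Rhox2 windows (8.86% of all windows), and the E-box, SP1-type, ETS-type and E2F-type letters each contain a CpG pair. The GATA-type letters AGATAA matched Rhox13 alone among the Rhox windows (11.2% of all). TATAAA (13.6% of all) and the E2F-type GGCGGGA (11.3% of all) matched no member, and the SP1-type and E2F-type letters share GGCGG. The windows of 6 other Rhox2 copies were at least 94.3% identical to Rhox2a over the aligned stretch, and those of 6 other Rhox4 copies at least 94.7% identical to Rhox4e. Methylation and factor binding were not measured in these samples.

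The signal of each member is given first as background-subtracted fluorescence in arbitrary units, not scaled between arrays and not to be read between probes. The 75th percentile of an array lay at 629.0 to 745.4, so close values can change order once scaled to it. Rhox5 at day 9 did so, at log2 6.70 with hairpin 2 and 6.86 with hairpin 1 after scaling. Rhox13, a gene of male germ cells, had 3930 with hairpin 2, 5180 with hairpin 1 and 7450 with the control vector at day 12. At day 9 it had 1470 with hairpin 2, 1710 with hairpin 1 and 3540 with control. Within each day both knockdown samples lay below the control, and all day 12 samples lay above all day 9 samples.

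Rhox5, the founding member, had 110000, 80600 and 135000 with hairpin 2, hairpin 1 and control at day 12. At day 9 its signals were 77700, 76200 and 95300 in the same order of vectors. Both knockdown samples lay below the control of their day, while the day 12 hairpin 1 sample lay below the day 9 control, so that the days overlapped. Rhox4e had 3840, 2750 and 4600 with hairpin 2, hairpin 1 and control at day 12. At day 9 it had 1610, 1720 and 2590, with both knockdown samples below the control of their day. After each array was scaled to its 75th percentile (log2), its day 12 hairpin 1 sample (2.01) lay just below the day 9 control (2.04), so that here too the days overlapped.

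Rhox2a, a member with many near-identical copies, had 4780, 2210 and 4160 with hairpin 2, hairpin 1 and control at day 12. It had 819, 412 and 987 at day 9. All day 12 samples lay above all day 9 samples, hairpin 1 was lowest at each day, and the day 12 hairpin 2 sample lay above its control. Rhox3a, whose gene also has many copies, had 24.2, 20.7 and 39.7 at day 12 with hairpin 2, hairpin 1 and control. At day 9 it had 11.9, 9.92 and 9.88. The day 9 samples were nearly level, and all day 12 samples lay above them. The Rhox3a levels were low, at log2 -6.05 to -4.14 relative to the array's 75th percentile. The lowest probe marked well above background on an array lay at -7.19 to -6.72.

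Rhox6, a placental and germ cell gene, had 19100 with hairpin 2, 26100 with hairpin 1 and 31900 with control at day 12. At day 9 it had 8780 with hairpin 2, 25500 with hairpin 1 and 23400 with control. The day 9 hairpin 2 sample stood apart below all others, and the 2 hairpin 2 samples were the lowest pair. Rhox9, the close relative of Rhox6, had 26900, 39700 and 47600 with hairpin 2, hairpin 1 and control at day 12. Its signals at day 9 were 14600, 36800 and 34300, again with the hairpin 2 samples lowest.

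**Figure D1:**
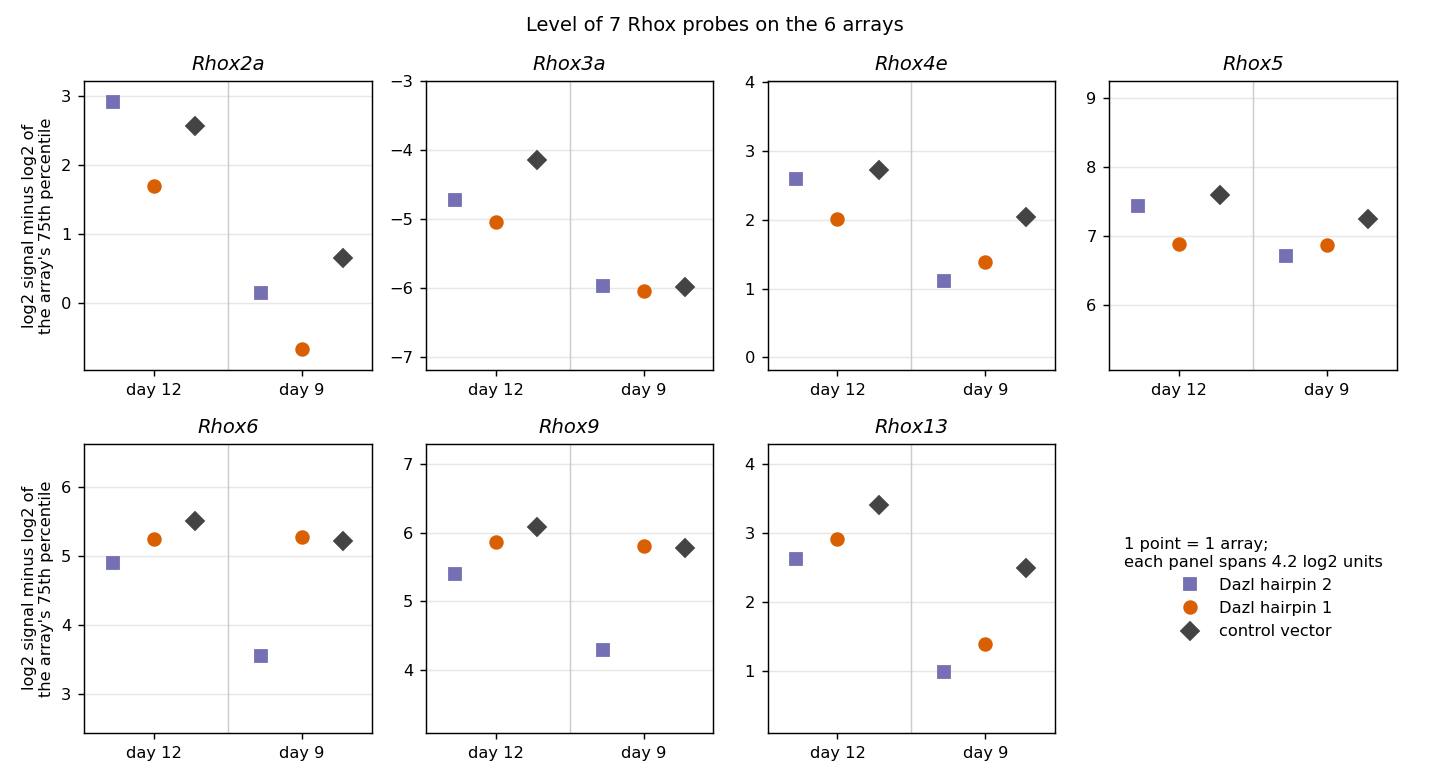
Level of the 7 Rhox probes on each of the 6 arrays, as log2 signal minus log2 of the array's 75th percentile (vertical axis), by day and vector (horizontal axis); 1 point is 1 array and each panel spans the same number of log2 units. Rhox2a, Rhox3a and Rhox13 had every day 12 array above every day 9 array, and Rhox6 and Rhox9 had their lowest point with hairpin 2 at day 9.

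The Dazl knockdown was compared with the control in 1 linear model over all 6 arrays with day as a term. All 7 Rhox probes had lower fitted levels in the knockdown samples, by a median log2 difference of -0.59. Of all 30190 tested probes 53.2% were lower, with a median of -0.02. In single pairs with the control of the day, 6 of 7 were lower with hairpin 2 and 7 with hairpin 1 at day 12. At day 9, 6 were lower with hairpin 2 and 5 with hairpin 1. With another background correction (normexp), which put the median of all probes at 0.12, Rhox3a had the opposite sign, at 0.14. No Rhox probe passed the test: 0 of 7 had an adjusted p under 0.05 in limma, where 0.00662% of all probes did (2 probes). Of the 7, 2 (Rhox13 and Rhox4e) had an unadjusted p under 0.05 in limma, as did 2982 of all 30190 probes. The adjusted p of the 7 lay between 0.342 and 0.71.

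Rhox13 had the largest difference of the family, at -0.98 on the log2 scale (SE 0.23, limma adjusted p = 0.342), and 1.06% of all tested probes had a lower value. Set against the control of the same day, its level was 58.0% with hairpin 2 and 71.1% with hairpin 1 at day 12, and 35.0% with hairpin 2 and 46.3% with hairpin 1 at day 9. Rhox4e differed by -0.60 (SE 0.22, limma adjusted p = 0.475). Its level at day 12 was 91.8% of control with hairpin 2 and 61.1% with hairpin 1, while the day 9 values were 52.5% and 63.7%. Rhox5 differed by -0.45 (SE 0.20, limma adjusted p = 0.533), with 89.6% and 61.0% of control at day 12 and 68.8% and 76.7% at day 9. These 3 members were lower than the control of their day in all 4 pairs of a knockdown and a control sample. That is 3 of 7 members, where 19.1% of all tested probes were lower in all 4 pairs. No member was higher in all 4 pairs, where 14.9% of all probes were.

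The other 4 members were lower in 3 of their 4 pairs. Rhox2a differed by -0.59 (SE 0.41) and was the exception with hairpin 2 at day 12, where it stood at 126% of control. Rhox6 differed by -0.61 (SE 0.46) and Rhox9 by -0.59 (SE 0.42). Both values rested largely on the day 9 hairpin 2 sample, without which they were -0.22 for Rhox6 and -0.24 for Rhox9. In that sample Rhox6 had 31.7% and Rhox9 35.9% of the control's level, while with hairpin 1 on the same day they had 104% and 103%. Rhox3a differed by -0.38 (SE 0.22), at 67.1% of control for hairpin 2 and 53.3% for hairpin 1 on day 12, while the day 9 values were 102% and 96.3%.

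The effect of the knockdown was then fitted separately per day, which assumes for each single control array the spread seen between the hairpins. At day 12, 0 of 7 Rhox probes passed in limma and 1, Rhox3a, had an unadjusted p under 0.05, where 0% of all probes passed and 1390 had an unadjusted p under 0.05. At day 9, 0 of 7 passed and 1, Rhox13, had an unadjusted p under 0.05, where 0% of all probes passed and 1148 had an unadjusted p under 0.05. Rhox13 differed by -0.64 (SE 0.30) at day 12 and by -1.31 (SE 0.30) at day 9, and the effects differed by 0.67 with a 95% interval of -0.39 to 1.74. Rhox3a differed by -0.74 (SE 0.26) at day 12 and by -0.02 (SE 0.26) at day 9, and the effects differed by -0.73 with a 95% interval of -1.67 to 0.22. Under normexp the Rhox3a value at day 12 was -0.15. The sign of its value at day 9 was positive under normexp (0.43), quantile normalization (0.05) and the authors' deposited table (0.02). For the difference between the days 0 of 7 Rhox probes passed in limma, and 0 of 7 had an unadjusted p under 0.05. Among all probes 0% passed and 456 had an unadjusted p under 0.05.

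**Figure D2:**
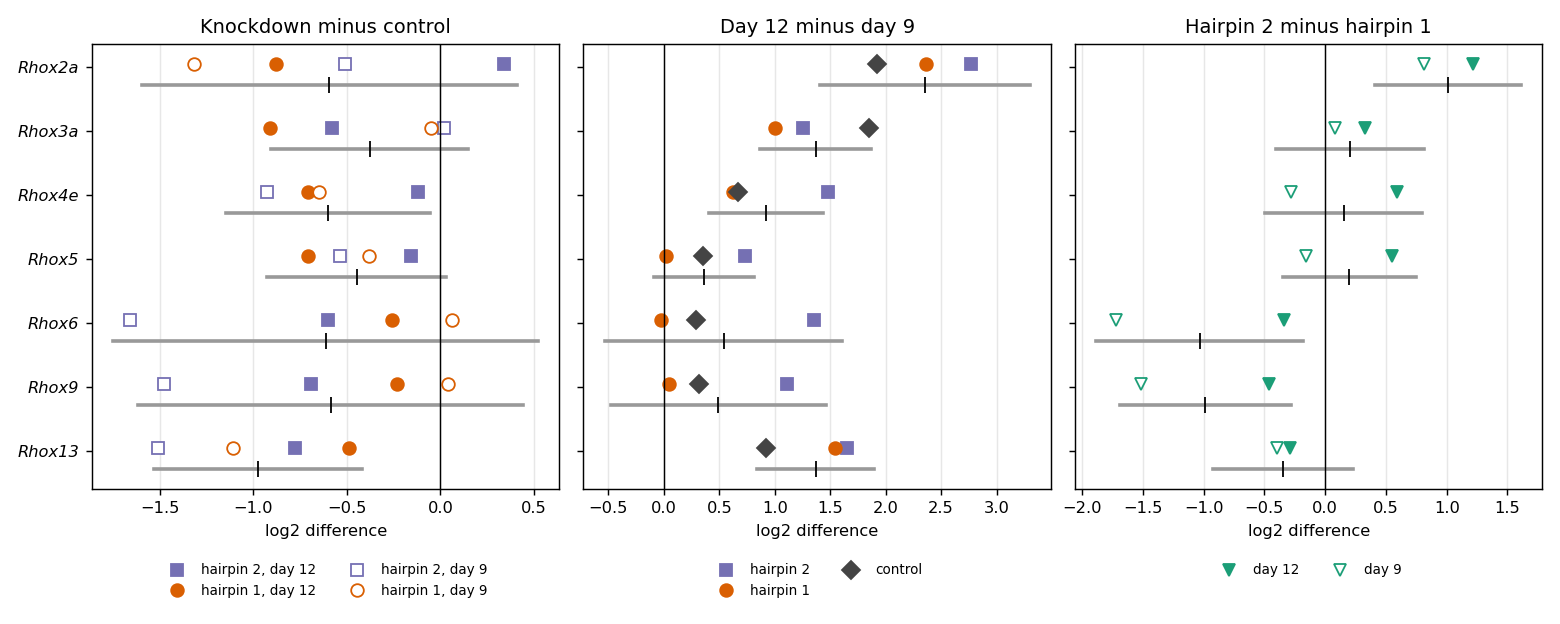
Log2 differences of the 7 Rhox probes between knockdown and control (left), day 12 and day 9 (middle) and hairpin 2 and hairpin 1 (right); points are single pairs of arrays, ticks are the fitted values of limma and grey bars their 95% intervals. Rhox4e, Rhox5 and Rhox13 have all 4 knockdown pairs below 0, and Rhox2a has day differences of 1.92 to 2.77.

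Between the days the family ran the other way. All 7 Rhox probes had higher fitted levels at day 12 than at day 9, with a median log2 difference of 0.92. Of all tested probes 50.6% were higher, with a median of 0.0. With normexp Rhox3a had the opposite sign, at -0.04. The 3 arrays of a day were printed on the same slide and scanned together, and slide therefore cannot be told apart from day in any of these values. In the model with knockdown as a term, 0 of 7 members had an adjusted p under 0.05 in limma, where 0.0563% of all probes did (17 probes). Of the members 4, Rhox2a, Rhox3a, Rhox4e and Rhox13, had an unadjusted p under 0.05 in limma, as did 3220 of all 30190 probes.

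Rhox2a differed most, by 2.35 on the log2 scale (SE 0.39, limma adjusted p = 0.125), and 0.149% of all tested probes had a higher value. When the model also held the vector as a replicate block, pairing each hairpin or control across the days, its limma adjusted p was 0.0186, and 1 of 7 members passed where 0.812% of all probes did (245 probes). Its level at day 12 was 6.84-fold that at day 9 with hairpin 2, 5.14-fold with hairpin 1 and 3.79-fold with control. Rhox3a and Rhox13 each differed by 1.37 (SE 0.20 and 0.21), with limma adjusted p of 0.117 for Rhox3a and 0.121 for Rhox13, and with the block 0.0578 and 0.0518. In the knockdown comparison the block left 0 of 7 members past the limma threshold, where 0.0132% of all probes passed (4 probes). Rhox13 stood at 3.13-fold, 2.9-fold and 1.89-fold its day 9 level with hairpin 2, hairpin 1 and control. Rhox3a stood at 2.38-fold, 2.0-fold and 3.61-fold.

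Rhox4e was higher by 0.92 (SE 0.21, limma adjusted p = 0.203), with 2.79-fold, 1.53-fold and 1.6-fold its day 9 level with hairpin 2, hairpin 1 and control. Rhox6 (0.54, SE 0.44), Rhox9 (0.49, SE 0.40) and Rhox5 (0.37, SE 0.18) differed least. With hairpin 1 they were nearly level between the days, at 98.1% of day 9 for Rhox6, 103% for Rhox9 and 101% for Rhox5. Without the day 9 hairpin 2 sample the Rhox6 value was 0.01 and the Rhox9 value 0.03. In all, 6 of 7 members were higher at day 12 with all 3 vectors, where 20.4% of all tested probes were, and 0 of 7 were lower with all 3, where 18.5% were. In 3 of 7, Rhox2a, Rhox3a and Rhox13, all 3 day 12 arrays lay above all 3 day 9 arrays, where 8.68% of all probes did.

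Hairpin 2 and hairpin 1, which target the same transcript, gave differences of opposite sign in the family's members. Rhox2a was higher with hairpin 2, by 1.01 on the log2 scale (SE 0.24, limma adjusted p = 0.262), at 233% of the hairpin 1 level at day 12 and 175% at day 9. Rhox6 was lower with hairpin 2, by -1.03 (SE 0.34, limma adjusted p = 0.398), at 78.8% of hairpin 1 at day 12 and 30.3% at day 9. Rhox9 was lower by -0.99 (SE 0.28, limma adjusted p = 0.339), at 72.9% at day 12 and 34.9% at day 9. In limma 0 of 7 members passed, where 0.00331% of all probes did (1 probe). These 3 had an unadjusted p under 0.05 in limma, as did 3217 of all 30190 probes. Without the day 12 hairpin 2 sample, Rhox6 (-1.64) and Rhox9 (-1.45) had a limma adjusted p of 0.0468 each, in a fit that called 1560 probes in all and left hairpin 2 with 1 array, assumed to vary like the other vectors. Without the day 9 hairpin 2 sample, in a fit of the same kind, the values were -0.42 for Rhox6 (limma adjusted p = 0.535) and -0.52 for Rhox9 (limma adjusted p = 0.432), so both the size and the call depended on single samples.

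Rhox6, Rhox9 and Rhox13 were lower with hairpin 2 at both days, as 27.8% of all tested probes were, and Rhox2a and Rhox3a were higher at both days, as 30.5% of all probes were. Rhox4e and Rhox5 were lower with hairpin 2 at day 9 and higher at day 12. Vector and array position cannot be told apart, since control, hairpin 1 and hairpin 2 took the same positions on both slides. Of the 8 tested trophoblast markers 6 were lower with hairpin 2, with a median log2 difference of -0.83, and 0 of them passed in limma, with 5 at an unadjusted p under 0.05. Their summed level, most of it from Krt7, was 20.2 with hairpin 2, 31.6 with hairpin 1 and 19.4 with control at day 12. At day 9 it was 13.3, 33.9 and 21.7. Of the 7 fibroblast markers all 7 were higher with hairpin 2, with a median of 0.99, and of the 11 endoderm markers 7 were lower, with a median of -0.37. In limma 0 of either list passed, with 5 fibroblast and 6 endoderm markers at an unadjusted p under 0.05, where 3217 of all 30190 probes stood. Summed endoderm marker levels, mostly from Sparc, were 28.6, 32.1 and 17.8 at day 12 and 21.7, 32.5 and 23.3 at day 9 in the same order. Fibroblast markers summed to 7.11, 3.36 and 2.05 at day 12 and 7.99, 5.5 and 5.39 at day 9. Of the 9 tested germ cell markers 5 were higher and 4 lower with hairpin 2, with a median of 0.21. Pluripotency markers had 4 higher and 2 lower (median 0.23), and gonadal markers 3 and 3 (median -0.04). In limma 0 of these 3 lists passed, with 1 germ cell marker at an unadjusted p under 0.05. The part of these cell types in the Rhox6 and Rhox9 values was not tested.

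Across the 6 arrays Rhox6 and Rhox9 were nearly parallel (Pearson r = 0.997), and both were lowest in the day 9 hairpin 2 sample. Rhox4e went most closely with Rhox5 (r = 0.931) and Rhox13 (r = 0.922), and Rhox2a with Rhox3a (r = 0.916). The least alike were Rhox2a and Rhox9 (r = 0.299). The arrays share 2 slides and 3 vectors, so these values describe the 6 arrays and carry no p.

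The probes of other genes most like each member were sought among 2177 probes. These were marked well above background on all 6 arrays and had an SD of at least 0.5 on the log2 scale. For Rhox13 the probes most alike were Sycp2, a component of the synaptonemal complex (r = 0.997), Tex101, a germ cell surface protein (r = 0.993), and Tex19.2, a mammalian germ cell gene (r = 0.986). For Rhox5 they were Idi2 (r = 0.994), Ptx3 (r = 0.977) and H1f6, the testis-specific linker histone (r = 0.969). Rhox4e was most like Calhm6 (r = 0.995), Rgn (r = 0.986) and Slc51a (r = 0.983), and Rhox3a like Ccdc96 (r = 0.992), Nkg7 (r = 0.99) and Trim62 (r = 0.986). Some of these had low levels. In their lowest samples H1f6 lay at log2 -6.56, Idi2 at -5.97, Trim62 at -5.53 and Ptx3 at -5.5 relative to the array's 75th percentile. The lowest probe marked well above background on an array lay at -7.19 to -6.72. Rhox2a was most like 1700013H16Rik, an X-linked gene (r = 0.998), Eif1a (r = 0.998) and Bfsp2 (r = 0.997). Rhox6 was most like Bmp2k, a kinase (r = 0.999), Prune1 (r = 0.998) and Ubn1 (r = 0.995), and Rhox9 like Arpc5 (r = 0.998), Bmp2k (r = 0.998) and Pdpk1 (r = 0.996). With 6 arrays such values are common: between 38 probes (Rhox5) and 368 probes (Rhox6) had r over 0.9, with 337 for Rhox9. Rhox6, Rhox9 and the probes named as most like them, chosen by r over these same arrays, all had their lowest level in the day 9 hairpin 2 sample. There Rhox6 lay at -1.40 relative to its mean, while its other samples lay at -0.05 to 0.56. A shared lowest sample therefore largely follows from the choice of probes. What set that sample apart was not tested.

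**Figure D3:**
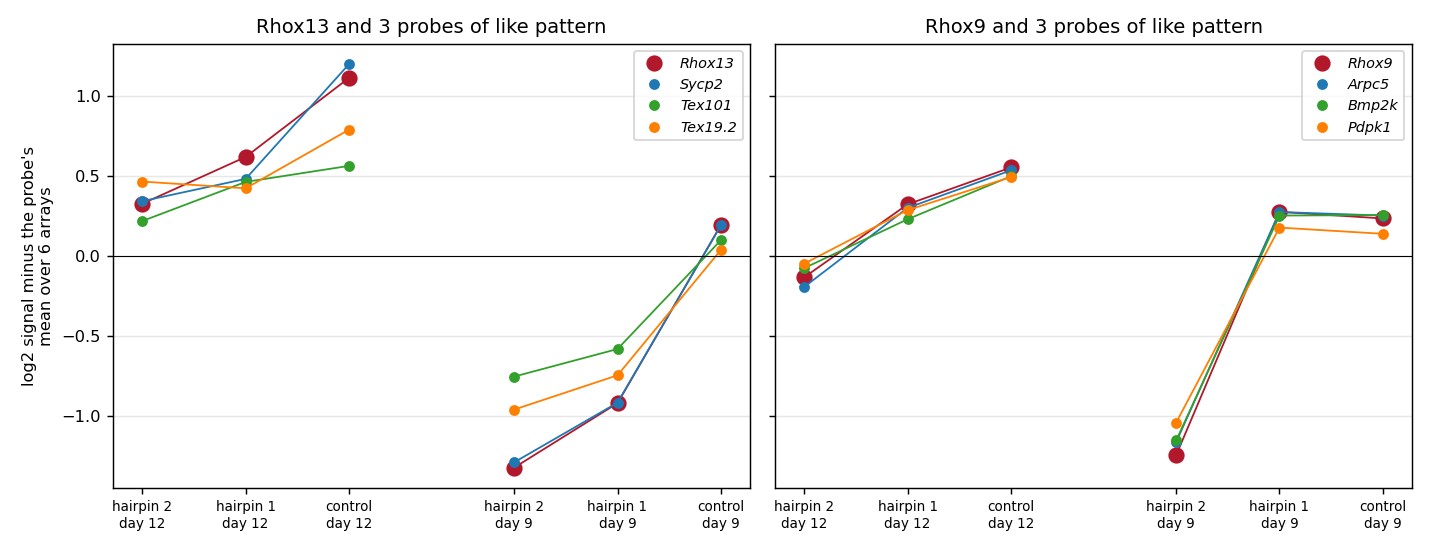
Level of Rhox13 (left) and Rhox9 (right) and of the 3 probes of other genes most like each, as log2 signal minus the probe's mean over the 6 arrays (vertical axis), by vector and day (horizontal axis); lines join the arrays of a day only to guide the eye. Rhox13, Sycp2, Tex101 and Tex19.2 had both hairpins below control at both days, and Rhox9 and its 3 probes had their lowest value with hairpin 2 at day 9. The probes were chosen by likeness over these same 6 arrays, so shared patterns largely follow from the choice.

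The nearest measured protein-coding genes were compared to see whether the Rhox values were shared with the surrounding X chromosome. Of 20 such neighbours, 10 on each side of the cluster, 13 were lower and 7 higher in the knockdown, with a median log2 difference of -0.16 where all tested probes had -0.02. In limma 0 of the 20 passed for the knockdown or the day, where 0.00662% and 0.0563% of all probes did. An unadjusted p under 0.05 stood for 3 of the 20 for the knockdown and 5 for the day. Of all 30190 tested probes it stood for 2982 for the knockdown and 3220 for the day. Tmem255a, on the far side of Rhox13, differed most, by -1.87 (SE 0.16, limma adjusted p = 0.0956), followed by Gm9 at -0.89 (SE 0.17, limma adjusted p = 0.289), Upf3b, a factor of nonsense-mediated decay, at -0.67 (SE 0.37) and Thoc2, a subunit of the mRNA export complex THO, at -0.59 (SE 0.36). Without the day 9 hairpin 2 sample, Upf3b stood at -0.38 and Thoc2 at -0.28, Tmem255a at -1.79 and Gm9 at -0.87. Between the days 7 neighbours were higher and 13 lower at day 12, with a median of -0.18. Gm9, the nearest measured gene before Rhox2a, was the neighbour with the largest day difference, 0.93 (SE 0.16, limma adjusted p = 0.138), and the next was Tmem255a at -0.60 (SE 0.15). Gm9 was lower in all 4 knockdown pairs and higher at day 12 with all 3 vectors, as were 3 of the 7 Rhox members (Rhox4e, Rhox5 and Rhox13) and 6% of all tested probes. Over the other 856 X-chromosome probes the median was -0.06 in the knockdown, with 59.9% of them lower, against 53.2% of all tested probes, and -0.01 between the days.

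**Figure D4:**
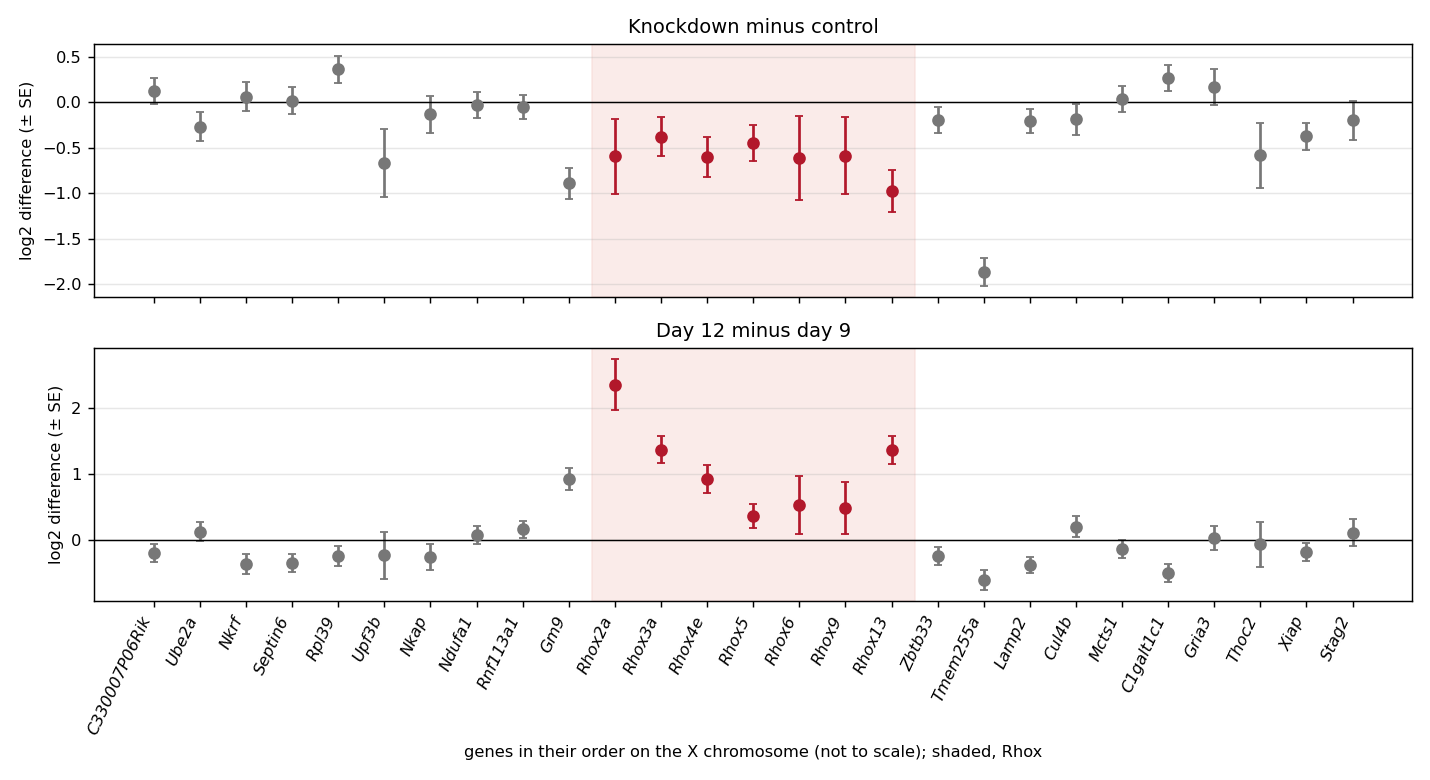
Fitted log2 difference with its SE for the 7 Rhox genes (red, shaded) and the 10 nearest measured protein-coding genes on each side (grey), in order along the X chromosome and not to scale, for knockdown minus control (top) and day 12 minus day 9 (bottom). All 7 Rhox genes lie below 0 at the top and above 0 at the bottom (Rhox3a has the opposite signs with normexp), while the neighbours lie on both sides, with Tmem255a at -1.87 and Gm9 at -0.89 at the top.

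Genes of DNA and chromatin regulation, factors reported at the Rhox5 promoters and reported RHOX5 target genes were listed by name. Whether each listed gene acts on the cluster in these cells was not tested. Of 17 genes of DNA methylation and H3K9 methylation, 13 were lower in the knockdown, with a median of -0.12, and 0 passed in limma. Of all tested probes 53.2% were lower, with a median of -0.02. The largest differences were those of the de novo methyltransferases Dnmt3b (-0.57, SE 0.19) and Dnmt3a (-0.55, SE 0.21), the dioxygenase Tet2 (0.50, SE 0.28) and the chromatin remodeller Hells (-0.49, SE 0.17). Between the days 10 were higher and 7 lower at day 12, with a median of 0.05 and 0 calls. The largest were Suv39h1, an H3K9 methyltransferase (-0.39, SE 0.18), and Trim28, a corepressor (-0.33, SE 0.28).

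Of 11 genes of the E2F6 and PRC1.6 complexes, which repress germline genes, 5 had lower and 6 had higher levels in knockdown samples, with a median of 0.03. Tfdp1, a dimer partner of E2F proteins, was the lowest at -0.49 (SE 0.17), followed by Cbx3, a heterochromatin protein (-0.27, SE 0.23), Pcgf6, a Polycomb subunit (-0.21, SE 0.15) and Yaf2 (-0.11, SE 0.16). Between the days Max, the dimer partner of Mga (-0.39, SE 0.15), and L3mbtl2 (-0.38, SE 0.31) differed most. Of 9 linker histones, 7 were lower in the knockdown, with a median of -0.16, where 53.2% of all tested probes were lower. H1f6, which was also like Rhox5 across the arrays, was the lowest (-0.97, SE 0.24), at low levels of log2 -6.56 to -4.49. It was followed by H1f1 (-0.28, SE 0.25), H1f8, the oocyte form (-0.27, SE 0.14) and H1f4 (-0.20, SE 0.26). Between the days H1f3 (-1.07, SE 0.21) and H1f10 (-0.94, SE 0.15) differed most. Of 7 tested factors reported at the Rhox5 promoters, 3 were lower and 4 higher in the knockdown, with a median of 0.03. Gata1 was the lowest (-1.17, SE 0.23, limma adjusted p = 0.289) and Gata4, a factor of Sertoli cells and endoderm, was the highest (0.42, SE 0.22), with Ets2 at 0.26 (SE 0.18) and Gabpa at 0.25 (SE 0.16). The Gata4 levels were low, at log2 -6.0 to -4.74. Between the days Gata4 (0.70, SE 0.20) and Ets2 (-0.23, SE 0.17) differed most. Of the 3 reported target genes of RHOX5, Gata1 is in both lists, while Unc5c (-0.05, SE 0.39) and Ins2 (-0.07, SE 0.27) differed by less than their SE and were each higher than control in 1 of 4 pairs. Unc5c was well above background on 2 arrays only. No gene of these 5 lists passed in limma in the knockdown, day or hairpin comparison. An unadjusted p under 0.05 in the knockdown stood for 3 genes of DNA and H3K9 methylation and for 1 gene in each of the other lists, with Gata1 counted in both of its lists. Between the days it stood for 5 linker histones, 1 gene of E2F6 and PRC1.6 and 1 Rhox5 promoter factor, and between the hairpins for 1 linker histone and 1 promoter factor. Of all 30190 tested probes, 2982 had such a p in the knockdown, 3220 between the days and 3217 between the hairpins.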

How the data were processed

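Intensity values were deposited as 1 Agilent Feature Extraction file per array, background-subtracted and spatially detrended with no normalization between arrays, per the file headers. The authors' deposited processed table held a ratio, the signal over a constant of its array. The quality score that both kinds of deposited file carry, whose making is not stated, served only to match entries. Signals were taken to log2 and each array's 75th percentile over probes was subtracted, spots of 1 probe were averaged and outlier spots left out. Names came from RefSeq accessions for 22951 probes, symbols or synonyms for 9745 and the array's annotation for 8478; gene order and promoter windows came from RefSeq tables of GRCm38.p6.

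The 30190 probes well above background on at least 2 arrays, with a value on all 6, were tested with limma 3.58.1 in R 4.3.3 (lmFit and eBayes, two-sided, Benjamini-Hochberg over all of them, threshold 0.05), after a test on simulated data. Every Rhox probe was named; of each gene list other than the cell type markers, which are given as groups, the members passing or else up to 4 with the largest knockdown and up to 2 with the largest day difference were named. The members and lists were chosen with earlier results of these data known. Deviations from the day means correlated between days for the same vector (0.3667 control, 0.5049 hairpin 1, 0.2372 hairpin 2). For different vectors the values were negative (-0.3109 to -0.04188). Since the deviations of a day cancel out, positive values for the same vector require negative ones among the rest, though not that each is negative. The replicate block pairs the arrays by vector, which cannot be told apart from array position. The number of arrays limits precision. 1 listed gene is not reported here. Alternatives covered normalization, background correction, filters, the prior, 1 probe a gene, the deposited table, the replicate block and leaving out each array.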

Additional observations from a re-analysis of the deposited data

How the results depend on the processing

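The knockdown values of the 7 Rhox probes kept their sign in 97 of 98 alternatives, the day values in 97 of 98 and the hairpin values in 86 of 91. The exceptions among settings were Rhox3a under normexp (knockdown 0.14, day -0.04), its day 9 knockdown value under quantile normalization (0.05), normexp (0.43) and the deposited table (0.02), and the Rhox5 difference between days under quantile normalization (-0.18). The cause was not tested. Normexp moved the median of all probes to 0.12 (knockdown), -0.14 (day) and 0.21 (hairpins).

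Leaving out each array in turn gave these ranges where a sign changed: knockdown at day 9 Rhox6 -1.66 to 0.06, Rhox9 -1.48 to 0.04 and Rhox3a -0.05 to 0.02; knockdown at day 12 Rhox2a -0.88 to 0.34; difference between days Rhox6 -0.49 to 1.23, Rhox9 -0.5 to 1.02 and Rhox5 -0.25 to 0.3; hairpins Rhox3a -0.07 to 0.48, Rhox4e -0.26 to 0.57 and Rhox5 -0.07 to 0.47. The Rhox13 knockdown value ranged from -1.31 to -0.64 and that of Rhox2a from -0.92 to -0.27.

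Probes called over the whole array changed with the settings, from 2 for the knockdown to 0 (1 probe a gene), 1 (deposited table) and 4 (replicate block), and 0 to 1 without 1 array. For the day, 17 calls became 11 (quantile), 1 (normexp), 0 (no filter), 30 (1 probe a gene), 4 (trend and robust prior), 0 (deposited table) and 245 (replicate block), and 0 to 3 without 1 array. For the hairpins, 1 call became 91 (normexp), 0 (no filter), 3 (all 6 arrays), 14 (1 probe a gene), 30 (trend and robust prior) and 2 (deposited table), and 0 to 1560 without 1 array. Rhox calls changed for the day to 1 (Rhox2a, replicate block) and for the hairpins to 0 to 2 without 1 array. The replicate block changed no other Rhox call.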
